A study of Mus musculus with 2 samples.

Results

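Secretogranins, the proprotein convertases and the carboxypeptidase Cpe were examined in CT26, a mouse colon carcinoma cell line, with and without forced expression of Oct4 and SOX2. The set comprised 10 genes (Scg5, Scg2, Scg3, Pcsk1, Pcsk2, Pcsk5, Pcsk6, Pcsk7, Furin and Cpe), found by gene name among the 54532 genes of the deposited expression table. The members were selected on FPKM values of these libraries, around the difference of Scg5, so their differences are described and not tested. The Oct4 and SOX2 culture carried lentivirus that expressed Oct4 of mouse and SOX2 of human. The control, labelled wild type, carried the empty vector by the same route. Both were grown in the same medium with serum and harvested for RNA sequencing after 4 days. The sources used here do not say whether either culture was a clone or a pool. There was 1 library in each group, so no difference below has a replicate check.

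Many hormones and growth factors are made as inactive precursors that are cut in the secretory pathway. Furin, Pcsk5, Pcsk6 and Pcsk7 are serine proteases that cut precursors after clustered basic residues in most cell types, whereas Pcsk1 and Pcsk2 work in the dense-core granules of endocrine cells and neurons. Carboxypeptidase E, the product of Cpe, then removes the basic residues left at the cut end. Granins are acidic cargo proteins of these granules. Scg5 encodes 7B2, a small granule protein known as the chaperone of Pcsk2, and 7B2 is itself cut by furin-type convertases.

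The coding sequences show where such cuts can fall in the members with the most reads besides the convertases. Basic codons are those for arginine and lysine. In the GENCODE M21 coding sequence of Scg5, of 212 codons before the stop, codons 177 to 181 were 5 basic codons in a row, and this run is the known site of the furin-type cut in 7B2. Cpe also held a run of 5, at codons 38 to 42, where the pro-segment of the enzyme is known to be removed. Both stretches are shown on the coding strand with the basic run in capitals.
Scg5: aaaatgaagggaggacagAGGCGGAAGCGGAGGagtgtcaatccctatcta
Cpe: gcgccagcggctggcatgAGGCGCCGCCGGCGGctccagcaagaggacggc
Among 21778 mouse coding sequences scanned in the same way, 5.85% held a run of 5 or more basic codons. In the other members the longest run was 4 basic codons in Pcsk2, 3 in Pcsk5, Pcsk6 and Furin, and 2 in Scg2, Scg3, Pcsk1 and Pcsk7.

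The starts of Scg5 and Scg2, the secretogranin genes with reads in these cells, are given next because the cells carried introduced transcription factors. RefSeq promoter windows (build GRCm38.p6, 250 bases before to 50 after the start) matched 9 of the 10 genes, with 10 windows in all. The motifs below were searched on both strands: the octamer bound by POU factors (ATGCAAAT), the SOX core (ACAATG), the AP-1 site (TGACTCA), the EGR1 site (GCGTGGGCG), the full cyclic AMP response element or CRE (TGACGTCA) and its core TGACG, which the full element contains on either strand. Capitals mark every match. The Scg5 window is chr2:113829042-113829341, minus strand, and the Scg2 window is chr1:79439977-79440276, minus strand.
Scg5: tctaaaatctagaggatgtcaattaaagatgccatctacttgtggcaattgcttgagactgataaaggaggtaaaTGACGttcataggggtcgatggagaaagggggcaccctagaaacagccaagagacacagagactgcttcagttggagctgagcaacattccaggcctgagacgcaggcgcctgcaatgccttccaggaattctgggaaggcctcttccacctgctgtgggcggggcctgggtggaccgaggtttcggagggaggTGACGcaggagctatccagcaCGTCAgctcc
Scg2: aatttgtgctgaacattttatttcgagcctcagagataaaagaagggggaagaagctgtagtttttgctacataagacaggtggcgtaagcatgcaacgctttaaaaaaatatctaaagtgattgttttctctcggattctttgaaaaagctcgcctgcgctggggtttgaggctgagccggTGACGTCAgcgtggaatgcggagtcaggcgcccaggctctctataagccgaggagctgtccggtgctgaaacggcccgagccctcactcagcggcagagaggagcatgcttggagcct
The Scg5 window held the core TGACG 3 times, beginning 175 bases before the start and, within the transcribed part, at bases 20 and 41. Windows with 3 or more such matches made up 1.03% of 32851 mouse promoter windows of the same length, and those with at least 1 made up 20.8%. The cut of 3 was the count in the Scg5 window itself, so the 1.03% is no test of that window. The Scg2 window held a full CRE beginning 68 bases before the start, as did the Pcsk1 window 78 bases before its own, against 1.79% of all windows. The core was found in windows of 6 members in all, namely Scg5, Scg2, Scg3, Pcsk1, Pcsk2 and Furin. The octamer, the SOX core, the AP-1 site and the EGR1 site were in 0 of the 10 windows, against 1.74%, 12.6%, 5.20% and 0.612% of all windows. These matches describe letters only, and binding was not measured.

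Reads were recovered from the deposited FPKM values, in which fragments are divided by gene length and scaled by a factor for each library. The reads summed to 31521115 in the Oct4 and SOX2 library and 32262408 in the control. Pou5f1, the gene for Oct4, stood at 173 FPKM from 12406 reads in the Oct4 and SOX2 library and at 0 reads in the control. Mouse Sox2 was at 23.3 FPKM with Oct4 and SOX2 and 14.1 FPKM in the control. The human SOX2 of the vector is not a gene of the mouse table. Whether reads from it were counted under mouse Sox2 cannot be told here. Of the colon epithelium markers 3 of 12 reached 1 FPKM in a library, with the summed list at 41.7 FPKM in the Oct4 and SOX2 library and 32.8 FPKM in the control. The epithelial cadherin gene Cdh1 and the intestinal factor gene Cdx1 had 0 reads in both, and the adhesion gene Epcam had 2 reads in the Oct4 and SOX2 library and 1 in the control. The keratin gene Krt20 was at 28.3 FPKM with Oct4 and SOX2 and 14.9 FPKM in the control. Krt18, another keratin gene, was at 11.3 FPKM with Oct4 and SOX2 and 15.2 FPKM in the control. Lgals4, the other measured marker, was at 1.87 FPKM with Oct4 and SOX2 and 1.89 FPKM in the control. Few markers of this list were thus measured in these cells.

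Scg5 was the member that set the libraries apart. It was at 42.1 FPKM from 2105 reads in the Oct4 and SOX2 library, against 1.86 FPKM from 93 reads in the control. The plain FPKM fold was 22.7, with an exact 95% counting interval of 18.4 to 28.2. This interval and those below cover counting error only, not variation between cultures. On the log2 scale of FPKM + 1, a scale that understates the differences of low genes, the difference was 3.92. Genes with at least 1 FPKM in a library were counted as measured, and differences of at least 2-fold on this scale as called. Of the 10 members 4 were measured, 1 was called higher and 0 lower. Among all 12401 measured genes, which include noncoding genes and pseudogenes, 2.42% were called higher and 1.85% lower. The members and the genes of the lists below are protein-coding. Among the 10276 measured protein-coding genes 143 were called higher and 110 lower, a smaller share in each direction. No test was run on this single pair of libraries, and Scg5 was chosen for its difference, so nothing is read from that comparison.

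By level, Scg5 was at rank 1130 of the 10276 measured protein-coding genes in the Oct4 and SOX2 library and at rank 9343 in the control. Those ranks put it above 89.0% of these genes in the Oct4 and SOX2 library and above 9.08% in the control. Its log2 difference was the 5th highest among these protein-coding genes, counting Pou5f1. In bulk RNA, more cells with Scg5 and more Scg5 RNA per cell cannot be told apart.

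**Figure D1:**
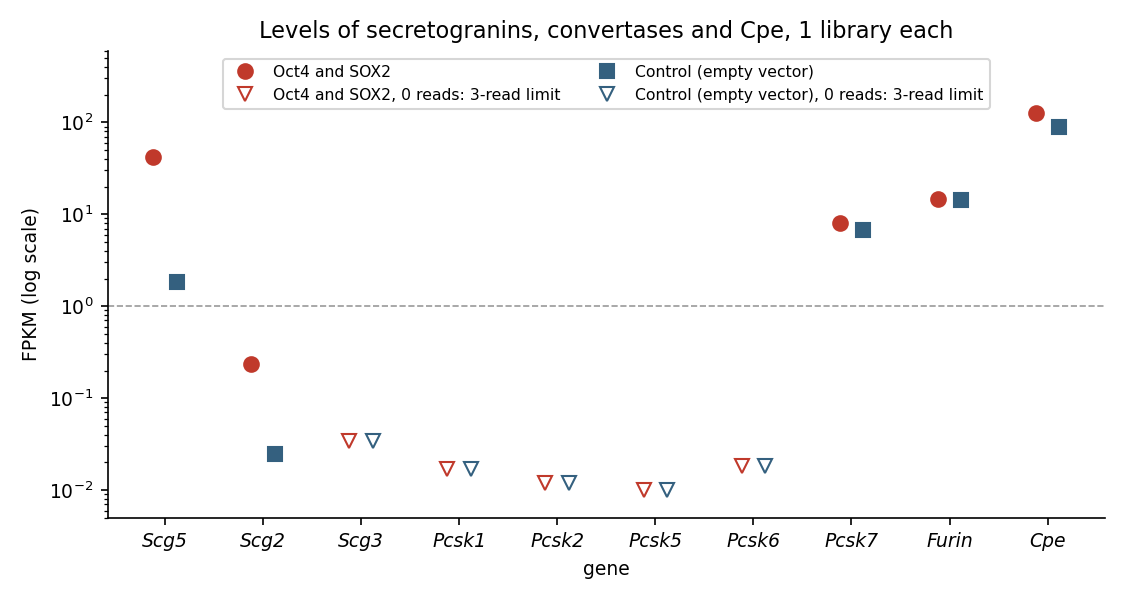
FPKM on a log scale for each of the 10 genes, with the Oct4 and SOX2 library (circles) left of the control (squares), 1 library each; open triangles mark the 3-read limit of genes with 0 reads and the dashed line 1 FPKM. Scg5 stood at 42.1 FPKM with Oct4 and SOX2 and 1.86 FPKM in the control, Cpe, Furin and Pcsk7 differed by less than 2-fold, and 5 genes had no reads.

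The other secretogranin members, Scg2 and Scg3, were low or absent. Scg2, which encodes the precursor of secretoneurin, had 19 reads or 0.237 FPKM in the Oct4 and SOX2 library and 2 reads or 0.0249 FPKM in the control. The plain fold was 9.52, with a wide counting interval of 2.30 to 84.3. Both values lay under the 1 FPKM filter, so Scg2 is not among the measured genes, and its log2 difference on the FPKM + 1 scale was 0.27. Scg3, whose product binds chromogranin A in granules, had 0 reads in both libraries. At its length of 2738 bases, a count of 0 allows up to 0.0344 FPKM in the Oct4 and SOX2 library and 0.0343 FPKM in the control. Scg5 made up nearly all of the signal from the 3 secretogranin genes, whose sum was 42.3 FPKM in the Oct4 and SOX2 library and 1.88 FPKM in the control.

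The granule convertases that 7B2 and the granins accompany in endocrine cells were not detected. Pcsk2, the partner of 7B2, had 0 reads in both libraries, which allows up to 0.0119 FPKM in each over a length of 7910 bases. Pcsk1, which makes the first cuts in many prohormones, also had 0 reads in both, allowing up to 0.0168 FPKM in each. Of the constitutive convertases, Pcsk5 and Pcsk6, which act at the cell surface and on growth factors of the TGF-beta family, likewise had 0 reads in both libraries. Their limits were 0.0101 FPKM for Pcsk5 in each library and 0.0181 FPKM for Pcsk6 in each. Zero reads were common in the table, since 6348 of 22046 protein-coding genes, or 28.8%, had none in either library. Part of Pcsk6, 3.01% of its exonic bases, is shared with the overlapping gene Gm45213, and 4.54% of those of Pcsk2 with its antisense genes.

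Of the 6 convertase members, Furin and Pcsk7 carried all the reads. Furin, the trans-Golgi convertase, was at 14.7 FPKM from 4285 reads in the Oct4 and SOX2 library and at 14.3 FPKM from 4196 reads in the control. Its fold of 1.02 had a counting interval of 0.980 to 1.07, so any difference was within counting error. Pcsk7, an evolutionarily distant member of the family, was at 7.95 FPKM from 1318 reads in the Oct4 and SOX2 library and at 6.72 FPKM from 1115 reads in the control. Its fold was 1.18, with an interval of 1.09 to 1.28. The value of Pcsk7 is less certain than the counts imply, because 10.1% of its exonic bases overlap exons of Rnf214 or Tagln on the opposite strand and the sources used here do not give the strand setting of the counting. Summed over the 6 convertases the level was 22.6 FPKM in the Oct4 and SOX2 library and 21.0 FPKM in the control.

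Cpe was the highest member in both libraries. It was at 127 FPKM from 10579 reads in the Oct4 and SOX2 library, against 89.8 FPKM from 7475 reads in the control. The fold was 1.42, with a counting interval of 1.38 to 1.46, and the log2 difference of 0.50 lay under the 2-fold rule. Cpe stood above 97.3% of measured protein-coding genes by level in the Oct4 and SOX2 library and above 95.6% in the control.

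**Figure D2:**
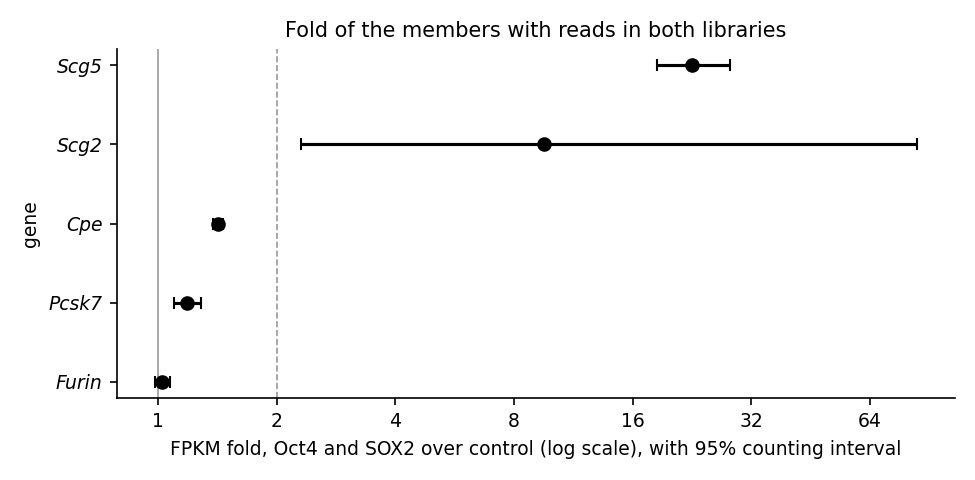
Plain fold in FPKM (Oct4 and SOX2 over control) on a log axis for the 5 members with reads in both libraries; bars are exact 95% counting intervals and the dashed line marks 2-fold. The interval of Scg5 runs from 18.4 to 28.2, that of Scg2 from 2.30 to 84.3 because the control had 2 reads, and that of Furin includes 1.

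The order of the levels differed between the libraries in the place of Scg5. In the Oct4 and SOX2 library the order by FPKM, which is per gene length, was Cpe, Scg5, Furin, Pcsk7 and Scg2. In the control it was Cpe, Furin, Pcsk7, Scg5 and Scg2. The Scg5 level was 2.87 times the Furin level in the Oct4 and SOX2 library and 0.130 times in the control. Cpe exceeded Scg5 by 3.02 times in the Oct4 and SOX2 library and by 48.3 times in the control. Scg5 made up 21.9% of the summed FPKM of the 10 genes in the Oct4 and SOX2 library and 1.65% in the control. Cpe made up 66.2% with Oct4 and SOX2 and 79.7% in the control.

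**Figure D3:**
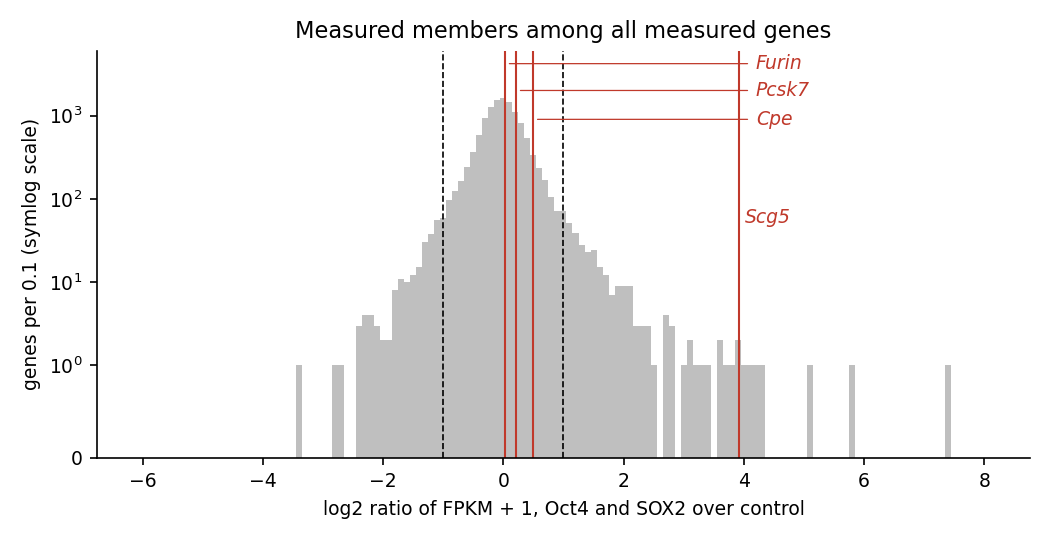
Number of measured genes, on a symlog axis, by log2 difference in FPKM + 1 (Oct4 and SOX2 over control), in steps of 0.1; red lines mark the 4 measured members and dashed lines 2-fold either way. Furin at 0.03 and Pcsk7 at 0.21 lie in the bulk of the 12401 genes, and Scg5 at 3.92 in the upper tail. Cpe at 0.50 lies on the upper side, above 93.6% of the measured protein-coding genes.

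Scg5 lies on chromosome 2 from 113776362 to 113829121 on the minus strand in GRCm38, and its principal transcript has 6 exons, with 639 coding bases, 130 bases of 5′ UTR and 439 of 3′ UTR. No exon of another annotated gene overlaps its exons. The nearest protein-coding gene on each side was on the same strand and did not share the difference. Grem1, encoding a secreted BMP antagonist, lies 17.7 kb downstream of Scg5 and was at 15.9 FPKM in the Oct4 and SOX2 library and 38.4 FPKM in the control, 2.41-fold lower (2.29 to 2.54). Arhgap11a, a GTPase-activating protein gene 2.37 kb upstream of the Scg5 start, was at 22.9 FPKM in the Oct4 and SOX2 library and 22.3 FPKM in the control, a fold of 1.03 (0.980 to 1.07). Farther out, within 500 kb, the formin gene Fmn1 was at 7.27 FPKM with Oct4 and SOX2 and 7.09 FPKM in the control. Aqr, a helicase gene of the spliceosome, was at 8.66 FPKM with Oct4 and SOX2 and 9.45 FPKM in the control. Zfp770, a zinc finger gene, was at 3.57 FPKM with Oct4 and SOX2 and 3.28 FPKM in the control. The pseudogene Gm21596 was at 0.501 FPKM from 21 reads in the Oct4 and SOX2 library and 1.21 FPKM from 51 reads in the control. Around Scg5, then, Scg5 was the gene called higher and Grem1 the gene called lower.

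**Figure D4:**
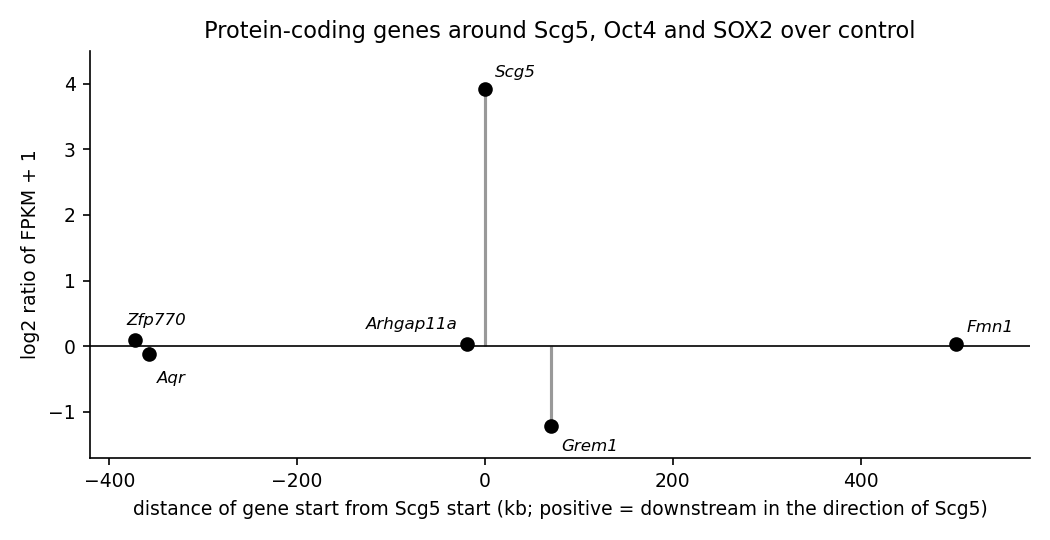
Log2 difference in FPKM + 1 (Oct4 and SOX2 over control) for Scg5 and the protein-coding genes within 500 kb with at least 1 FPKM in a library, by the distance of their starts from the Scg5 start in kb. Scg5 stands at 3.92, Grem1 at -1.22 and the other 4 genes between -0.11 and 0.09.

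The 3 protein-coding genes with at least 5 FPKM in a library whose log2 difference was nearest to that of Scg5, over these 2 libraries, were Fos, Kpna7 and Serpinb2. Fos, for an AP-1 subunit, was at 23.05 FPKM in the Oct4 and SOX2 library and 0.533 FPKM in the control. Kpna7, for an importin alpha, was at 13.2 FPKM with Oct4 and SOX2 and at 0 reads in the control. Serpinb2, for a plasminogen activator inhibitor, was at 15.2 FPKM with Oct4 and SOX2 and 0.213 FPKM in the control. Their log2 differences lay 0.06, 0.09 and 0.17 from that of Scg5.

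Genes of the same secretory route outside the set showed few differences of this size. Of the other granins, 1 of 4 was measured. Vgf, a neuropeptide precursor gene, was at 4.37 FPKM in the Oct4 and SOX2 library and 8.39 FPKM in the control, a log2 difference of -0.81 that was under the 2-fold rule and of opposite sign to that of Scg5. Chga and Pcsk1n, for chromogranin A and the Pcsk1 inhibitor proSAAS, had 0 reads in both libraries, and Chgb, for chromogranin B, had 2 reads in the Oct4 and SOX2 library and 13 in the control. Of the other convertases 2 of 3 were measured and 0 called, beside 2.42% called higher and 1.85% lower over all measured genes. Mbtps1, the site-1 protease gene, was at 22.04 FPKM with Oct4 and SOX2 and 20.4 FPKM in the control. Pcsk4, a germ cell convertase gene, was at 2.15 FPKM with Oct4 and SOX2 and 2.25 FPKM in the control. Of 4 convertase inhibitors 2 were measured and 0 called, beside the same shares. Gbp2 and Gbp5 are interferon-inducible GTPase genes whose human products are known to inhibit furin. Gbp2 was at 22.7 FPKM with Oct4 and SOX2 and 22.9 FPKM in the control, and Gbp5 at 0.936 FPKM with Oct4 and SOX2 and 1.06 FPKM in the control.

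The enzymes that finish peptides were partly expressed, without a call among the measured ones. Of 11 genes for carboxypeptidases, aminopeptidases, the amidation enzyme and a glutaminyl cyclase 5 were measured and 0 called. Over all measured genes 2.42% were called higher and 1.85% lower. The median log2 difference of the list was 0.21 beside -0.01 over all measured genes. Pam, the peptide amidation enzyme gene, was at 17.3 FPKM in the Oct4 and SOX2 library and 16.8 FPKM in the control. Lnpep, an aminopeptidase gene, was at 24.8 FPKM with Oct4 and SOX2 and 18.5 FPKM in the control. Cpn1, a carboxypeptidase gene, stayed under the filter with 106 reads in the Oct4 and SOX2 library and 8 in the control.

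Granule and exocytosis genes were partly present in both libraries. Of 30 genes 13 were measured, 2 were called higher and 0 lower, and the median log2 difference was 0.16. The shares called over all measured genes were 2.42% higher and 1.85% lower. Rims2, a scaffold of vesicle release sites, was at 6.53 FPKM in the Oct4 and SOX2 library and 2.43 FPKM in the control, 2.69-fold higher (2.48 to 2.92). Syt4, a synaptotagmin of secretory vesicles, was at 6.23 FPKM with Oct4 and SOX2 and 2.51 FPKM in the control, 2.48-fold higher (2.17 to 2.83). Ptprn, a transmembrane protein gene of dense-core granules, was the most expressed of the list at 43.4 FPKM with Oct4 and SOX2 and 38.7 FPKM in the control. Snap25, Syt5, Syt9, Rims1 and Sytl4 had 0 reads in both. Of 18 trans-Golgi sorting genes 14 were measured, 1 was called higher and 0 lower, beside the same shares over all measured genes, with a median of -0.08. That gene was Pacs1, for an adaptor that returns furin to the trans-Golgi network, at 16.2 FPKM in the Oct4 and SOX2 library and 7.44 FPKM in the control, 2.17-fold higher (2.02 to 2.34). With a pseudocount of 5 FPKM in place of 1 the log2 differences were 0.63 for Rims2, 0.58 for Syt4 and 0.77 for Pacs1, under the 2-fold rule.

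Endocrine transcription factors were mostly silent. The list of 17 genes also held the repressor gene Rest and its corepressor genes Rcor1 and Rcor2. Measured were 4 genes, namely these repressor genes and Pax6, with 0 called and a median of 0.29. The shares called over all measured genes were 2.42% higher and 1.85% lower. In both libraries 9 genes of the list had 0 reads, among them Neurod1, Neurog3 and Insm1. Rest, the repressor of neuronal and endocrine genes, was at 16.04 FPKM in the Oct4 and SOX2 library and 16.2 FPKM in the control. Its corepressor gene Rcor1 was at 18.1 FPKM with Oct4 and SOX2 and 17.4 FPKM in the control. Rcor2 was at 11.9 FPKM with Oct4 and SOX2 and 7.94 FPKM in the control. Markers of other cell types that contain Scg5 were checked too. Of 14 enteroendocrine and neuroendocrine markers only Pax6 was measured, at 3.28 FPKM with Oct4 and SOX2 and 1.93 FPKM in the control. The list summed to 3.33 FPKM with Oct4 and SOX2 and 2.13 FPKM in the control. Of these markers 10 had 0 reads in both, Chga included. Of 10 neuronal markers 4 were measured and 1 called higher, the tubulin gene Tubb3 at 8.12 FPKM with Oct4 and SOX2 and 2.63 FPKM in the control, beside 2.42% called higher over all measured genes. The neuronal list summed to 50.2 FPKM with Oct4 and SOX2 and 32.5 FPKM in the control, with Rbfox3 and Snap25 at 0 reads in both. Its largest part was Nefm, a neurofilament gene, at 23.6 FPKM with Oct4 and SOX2 and 19.7 FPKM in the control. The median log2 difference of the measured neuronal markers was 0.77, with 4 above 0 and 0 below. Gap43 was at 10.4 FPKM with Oct4 and SOX2 and 5.53 FPKM in the control, and Nefl at 7.77 and 4.25 FPKM. Under the filter, Map2 had 30 reads with Oct4 and SOX2 and 0 in the control. In the same order Elavl3 had 24 and 30, Syn1 21 and 23, and Stmn2 0 and 2. The neuronal sum was higher in the Oct4 and SOX2 library, as were the enteroendocrine, fibroblast and colon epithelium sums. The leukocyte sum was lower. The part of any of these lists in the Scg5 difference was not tested. Of 8 leukocyte markers only Cd68 was measured, at 4.27 FPKM with Oct4 and SOX2 and 5.53 FPKM in the control, and the list summed to 4.93 FPKM with Oct4 and SOX2 and 6.35 FPKM in the control. Of 8 fibroblast markers 4 were measured and 0 called, beside the same shares over all measured genes. The collagen gene Col1a2 was at 306 FPKM with Oct4 and SOX2 and 185 FPKM in the control, and Col1a1 at 39.99 FPKM with Oct4 and SOX2 and 62.1 FPKM in the control. The fibroblast list summed to 355 FPKM with Oct4 and SOX2 and 255 FPKM in the control.

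Among the measured genes of these lists, secreted peptide precursors and listed convertase substrates held the differences nearest in size to that of Scg5. This ranking is on the FPKM + 1 scale and leaves out genes under the filter, such as Cpn1. Of 31 peptide hormone and neuropeptide genes 5 were measured, 2 called higher and 0 lower, with a median of 0.66, and 15 had 0 reads in both libraries. Over all measured genes 2.42% were called higher and 1.85% lower. Edn1, the endothelin-1 precursor gene, was at 13.03 FPKM in the Oct4 and SOX2 library and 2.31 FPKM in the control, 5.63-fold higher (4.75 to 6.71). Nppb, the brain natriuretic peptide gene, was at 18.7 FPKM with Oct4 and SOX2 and 6.02 FPKM in the control, 3.11-fold higher (2.58 to 3.77). Of 30 genes listed as convertase substrates 24 were measured, 2 called higher and 0 lower, beside the same 2.42% and 1.85%, with a median of 0.20. Whether each product is cut by a furin-type convertase was not tested. Pthlh, for parathyroid hormone-related protein, was at 11.4 FPKM in the Oct4 and SOX2 library and 0.774 FPKM in the control, 14.8-fold higher (10.7 to 20.9). Angptl4, a lipase inhibitor gene, was at 7.86 FPKM with Oct4 and SOX2 and 1.45 FPKM in the control, 5.42-fold higher (4.56 to 6.49). With a pseudocount of 5 FPKM its log2 difference was just under the rule, and that of Tubb3 was 0.78. Both lists hold the neurotrophin gene Bdnf, at 18.3 FPKM with Oct4 and SOX2 and 11.2 FPKM in the control.

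**Figure D5:**
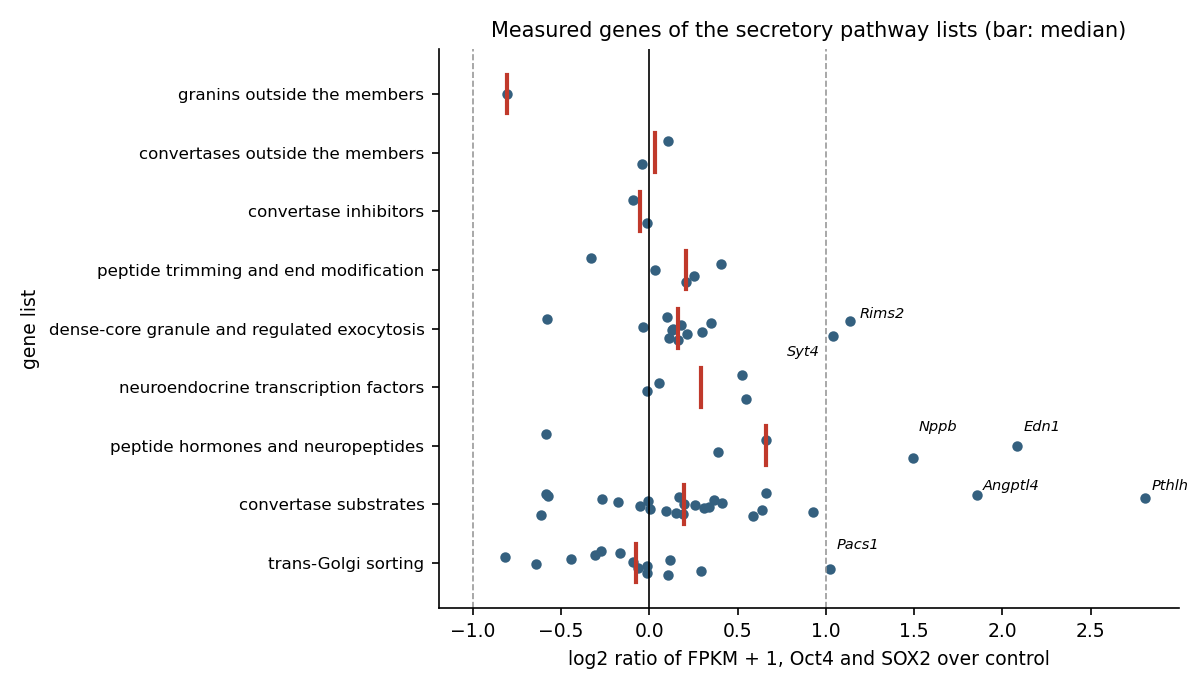
Log2 difference in FPKM + 1 (Oct4 and SOX2 over control) for each measured gene (point) of 9 lists around the granins and convertases, with the list median as a red bar and 2-fold as dashed lines. Pthlh, Edn1, Angptl4, Nppb, Rims2, Syt4 and Pacs1 lie beyond 2-fold and are named; vertical offsets only separate points.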

How the data were processed

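RNA was sequenced from 1 Oct4 and SOX2 library and 1 control library. The authors deposited FPKM values per gene with gene length and position; CASAVA, HISAT2, featureCounts 1.5.0-p3 and build GRCm38 are listed per the submitters' processing notes. No formula for the FPKM, strand setting or treatment of reads with several matches is given in the sources used here. Multiplied by the deposited length, 100% of the FPKM values in each library were whole multiples of its smallest step, within 0.001 of a read, which gave reads. Differences are log2 ratios of FPKM + 1 for genes with at least 1 FPKM in a library, and folds are plain FPKM ratios with exact 95% conditional binomial (Clopper-Pearson) intervals. A count of 0 allows up to 3 reads. With 1 library per group there is no test. GENCODE M21 (same build) gave transcripts and exon overlaps, and coordinates were the same as in the file for 9 of the 10 genes, Pcsk5 being the exception. All 10 members were named, and from each list up to 3 called genes in each direction or the 2 most expressed. Other genes were named after their values were seen, and the members and lists were chosen with earlier results of these data known. Values of some list genes are not reported here. The steps were tested on simulated data. Software was pandas 2.3.3, numpy 2.4.6, scipy 1.17.1 and, for figures, matplotlib 3.10.9 under Python 3.11.15.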

Additional observations from a re-analysis of the deposited data

How the results depend on the processing

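Scg5 remained the 1 member called higher, and 0 members were called lower, with pseudocounts of 0.1 and 5 FPKM, centring on the median, plain read totals, scaling without the 50 highest genes, no filter and a filter of 5 FPKM. Requiring a counting interval wholly beyond 2-fold, with no filter on level, gave 2 members, Scg5 and Scg2. The log2 difference of Scg5 was 4.43 with a pseudocount of 0.1 and 2.78 with 5, and 3.93 to 3.95 under the rescalings. Over all genes the calls were 520 higher and 459 lower with a pseudocount of 0.1, 75 and 56 with 5, 145 and 121 with a filter of 5 FPKM, and 143 and 110 among protein-coding genes only. With a pseudocount of 5 the calls of Rims2, Syt4, Pacs1, Tubb3 and Angptl4 were lost. The pseudocount acts most on low genes by construction. No paired analysis was possible because each group has 1 library, and no replicate could be left out. Depth limits Scg2, with 2 control reads.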

Other observations

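Next to the other expressed members, 0 of the nearest protein-coding genes within 500 kb that do not overlap the member passed 2-fold. Over all measured genes 2.42% were called higher and 1.85% lower. Genes that overlap a member were left out of this count, among them Rnf214 and Tagln at Pcsk7. Fes, a tyrosine kinase gene 0.638 kb downstream of Furin, was at 9.84 FPKM in the Oct4 and SOX2 library and 7.20 FPKM in the control, a fold of 1.37 (1.27 to 1.48), while Furin itself had a fold of 1.02. Blm, the DNA helicase gene upstream of Furin, was at 3.79 FPKM with Oct4 and SOX2 and 2.72 FPKM in the control. Bace1, a membrane protease gene upstream of Pcsk7, was at 7.74 FPKM in the Oct4 and SOX2 library and 6.06 FPKM in the control, and Sidt2, downstream of it, at 15.3 FPKM with Oct4 and SOX2 and 15.01 FPKM in the control. Msmo1, a sterol synthesis gene 25.1 kb upstream of Cpe, was at 18.9 FPKM in both libraries, from 3696 reads with Oct4 and SOX2 and 3697 in the control, while Tll1, downstream of Cpe, had 0 reads in both. Ap1s3, an adaptor subunit gene 167 kb upstream of Scg2, was at 6.13 FPKM with Oct4 and SOX2 and 5.68 FPKM in the control.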
